A study of Mus musculus with 12 samples.

Results

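Sorted rod photoreceptors of 12-month-old mice were compared with those of 1.5-month-old mice across the genome. The comparison rests on 8 of the 12 arrays of the study, 4 at each age, chosen by the age in the sample labels. All mice were C57BL/6 and carried the transgene Nrlp-EGFP, in which the promoter of Nrl drives enhanced green fluorescent protein and so restricts it, in the retina, to rods. The young arrays were C21, B21, D21 and E21 (1.5 months), and the old arrays were AR16, B16, D18 and A19 (12 months). RNA of sorted cells was amplified and hybridized to Affymetrix mouse arrays, 1 sample per array, and the methods describe 4 biological replicates per age. The remaining 4 arrays, at 5 months (A29, B29, C29 and A30), entered the estimate of the spread, and A30 was used to judge sex and cone signal.

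Rods are the photoreceptors of dim light. They capture photons with rhodopsin in a stack of membrane discs, the outer segment, which is carried by a modified cilium and renewed throughout life, and they release glutamate from a ribbon synapse. The chromophore of rhodopsin is a retinoid, and the cells burn glucose and fatty acids at a high rate to keep their ion gradients, so genes of retinoid handling, energy metabolism, cilium and synapse are the natural groups along which an ageing rod can be read.

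Every value below is a log2 value relative to the median of that probe set over the 12 arrays, so that differences between arrays, and no expression levels, can be given, and the presence of rod markers could not be checked as a level. A difference is the mean at 12 months minus the mean at 1.5 months, with its standard error from limma. Values of 4 arrays are listed in the order C21, B21, D21, E21 and AR16, B16, D18, A19. Of the groups compared, all 4 old arrays carried the Y-linked signal and all 4 young arrays carried Xist, which coats and silences the second X chromosome of females, at the level of A29, B29 and C29. Xist stood at -7.76, -7.75, -6.76 and -7.48 on the old arrays and at 0.03, 0.24, 0.29 and -0.03 on the young ones. Age and sex cannot be told apart within these 8 arrays. Cone markers differed between the 2 groups as well, along with the Y-linked signal. At 5 months the median cone gene was at 1.89 on A30, which carried the Y-linked signal, and at -0.59 to -0.17 on A29, B29 and C29. All 17 measured cone genes had positive differences, with a median of 1.25, and 2 of them, Gngt2 and Cngb3, passed the test, with adjusted p values of up to 0.121 and 0.101 when an array was left out. The spread in that test includes A30. In a fit of the 8 arrays alone, probe sets of Arr3, Opn1sw, Pde6c, Cngb3 and Ccdc136 were called, with rises of 1.46 to 2.15. The median cone gene ran from 0.51 to 1.74 on the old arrays and from -0.43 to -0.05 on the young ones. Its part in the results below was not tested beyond the fit with cone signal as a covariate. As sorted cells are a bulk sample, a change in the share of a cell type and a change of RNA per cell cannot be told apart.

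At an adjusted p under 0.05 and at least 1.5-fold, 454 of 45037 probe sets were higher at 12 months (1.01%) and 440 were lower (0.977%). At least a 2-fold difference was seen for 188 and 136 of them. The 2 ages did not overlap for 852 of these probe sets, and over all probe sets this was the case for 4803. When the probe sets of a gene were averaged, 334 of 18193 genes passed an adjusted p of 0.05 as higher (1.84%) and 219 as lower (1.2%), and the median gene differed by 0.02. The calls made up a small share of the genome, and some gene classes held no called gene. None of the 34 genes of respiratory complex I, the 16 of the mitochondrial ATP synthase, the 35 of the mitochondrial ribosome, the 31 of the cytosolic ribosome, the 31 of the proteasome or the 43 splicing factors passed the test as a gene, and the medians of these lists lay between -0.12 and 0.00. As single probe sets, 1 of 76 of complex I and 3 of 165 of the splicing factors were called lower, beside 0.977% over all probe sets. The plot of the gene lists gives each gene of these and the other lists.

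**Figure D1:**
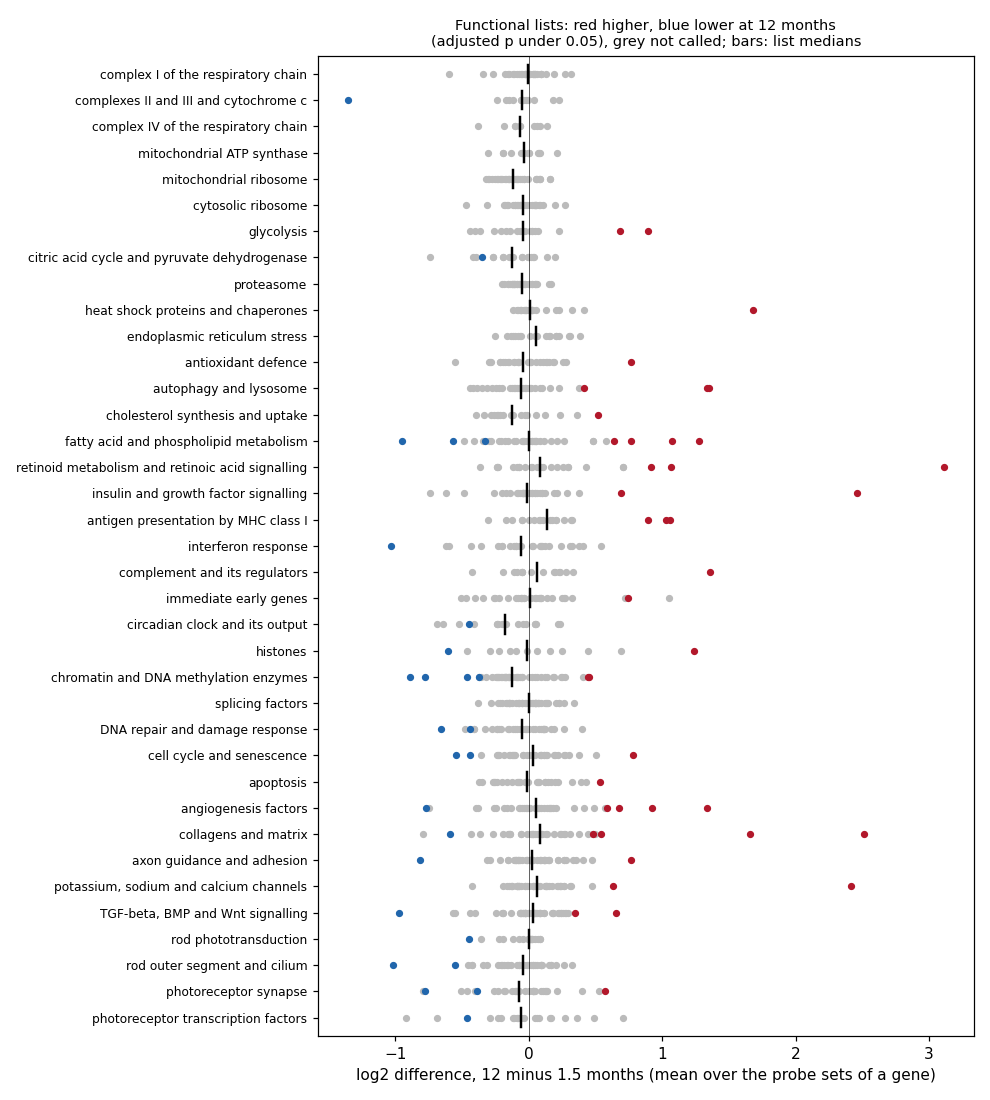
Log2 difference between 12 and 1.5 months (x axis) for each gene of 37 functional lists (rows), with genes called higher in red, called lower in blue and the others in grey; the black bar is the median of a list. List medians lie close to 0, and a list holds at most 7 called genes, with none in several lists.

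Several neighbouring retinol dehydrogenase genes were higher on the 12-month arrays. Retinol dehydrogenases of this family oxidize or reduce retinoids and steroids, and in photoreceptors related enzymes handle the retinal released by bleached rhodopsin. The list of retinoid metabolism and retinoic acid signalling had 26 measured genes, of which 3 rose and none fell, with a median of 0.09. Rdh9 was at -1.53, -1.996, -2.54 and -0.98 at 1.5 months and at 1.01, 1.53, 1.599 and 1.26 at 12 months, a difference of 3.11 (SE 0.34, adjusted p = 0.00074, 8.63-fold). Rdh16, in the same list, differed by 1.06 (SE 0.21, adjusted p = 0.018), and its adjusted p was 0.057 without C21. The retinoic acid receptor Rarb was at -0.48, -0.59, -0.59 and -1.14 against 0.18, 0.45, 0.03 and 0.19, and rose by 0.91 (SE 0.14, adjusted p = 0.0054). In the order of genes given by RefSeq for GRCm38.p6, Rdh9 lies on chromosome 10 between Rdh1 and Rdh16, followed by Rdh16f2, Rdh7 and Sdr9c7. Rdh1 was at -0.68, -0.54, -1.07 and -0.43 in young and at 0.44, 1.80, 1.39 and 1.14 in old rods, a difference of 1.87 (SE 0.34, adjusted p = 0.012). Rdh16f2 was at -0.66, -1.06, -0.88 and -0.88 against 0.05, 0.94, 0.44 and 0.58, a difference of 1.37 (SE 0.21, adjusted p = 0.0050). In each of these 4 genes every old array lay above every young one. The genes on either side did not pass the test, with 0.27 for Rdh7 (adjusted p = 0.15), 0.20 for Sdr9c7 (adjusted p = 0.59) and -0.11 for Gpr182 (adjusted p = 0.68). Of the 5-month arrays, C29 was high in all 4 genes, at 1.31 for Rdh9 and 1.38 for Rdh1, whereas A30 stayed near 0, at -0.10 and -0.22. The genes of the cluster are close in sequence and each was read by 1 probe set, so a probe set may read a neighbour as well. Rdh1 and Rdh16f2 were picked for their position after their values were seen, and their values are a description.

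The start regions of the 4 genes that rose are shown because they moved together on the same arrays. The 250 bases before a RefSeq start (GRCm38.p6, plus strand) were Rdh1 from chr10:127759513-127759762, Rdh9 from chr10:127776155-127776404, Rdh16 from chr10:127800903-127801152, Rdh16f2 from chr10:127866226-127866475. Capitals mark the letters TATAAA, the core of the TATA box, and TAATCC, the core of sites bound by CRX, the homeodomain factor of photoreceptors, each searched on both strands (TAATCC reads GGATTA on the other strand); no match overlapped another.
Rdh1: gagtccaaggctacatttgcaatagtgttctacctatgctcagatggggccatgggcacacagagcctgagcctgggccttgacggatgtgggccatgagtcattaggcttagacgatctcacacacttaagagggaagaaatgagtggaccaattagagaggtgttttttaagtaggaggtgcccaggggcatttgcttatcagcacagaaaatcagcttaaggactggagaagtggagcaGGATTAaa
Rdh9: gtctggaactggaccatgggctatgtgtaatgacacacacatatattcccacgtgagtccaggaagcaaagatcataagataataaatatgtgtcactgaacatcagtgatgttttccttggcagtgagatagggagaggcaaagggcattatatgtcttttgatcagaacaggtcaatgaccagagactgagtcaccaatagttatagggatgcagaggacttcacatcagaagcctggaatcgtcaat
Rdh16: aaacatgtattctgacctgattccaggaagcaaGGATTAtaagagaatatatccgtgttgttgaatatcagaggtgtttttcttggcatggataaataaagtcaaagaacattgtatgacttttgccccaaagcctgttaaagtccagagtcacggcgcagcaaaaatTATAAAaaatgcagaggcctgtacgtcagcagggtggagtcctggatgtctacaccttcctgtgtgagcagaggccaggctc
Rdh16f2: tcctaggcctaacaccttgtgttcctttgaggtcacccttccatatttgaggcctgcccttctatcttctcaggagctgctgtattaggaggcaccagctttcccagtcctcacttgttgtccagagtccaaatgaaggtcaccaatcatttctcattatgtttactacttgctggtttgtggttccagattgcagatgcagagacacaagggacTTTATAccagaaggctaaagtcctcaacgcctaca
TATAAA was found in Rdh16, with its first base at -82, and on the other strand in Rdh16f2, at -35, and it stood in the 250 bases of 12.4% of 32851 promoters in the RefSeq table. TAATCC was found on the other strand in Rdh1, at -8, and Rdh16, at -217, against 6.25% of all promoters, and Rdh9 held neither. The upstream bases of the 4 genes were 55.2% to 64.8% identical in pairs, with the highest value for Rdh9 and Rdh16. Around the start, Rdh9, Rdh16 and Rdh16f2 shared the 17 letters GCCAGGCTCATTTTGAC, which no other window of the table held, and Rdh1 did not hold them.

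**Figure D2:**
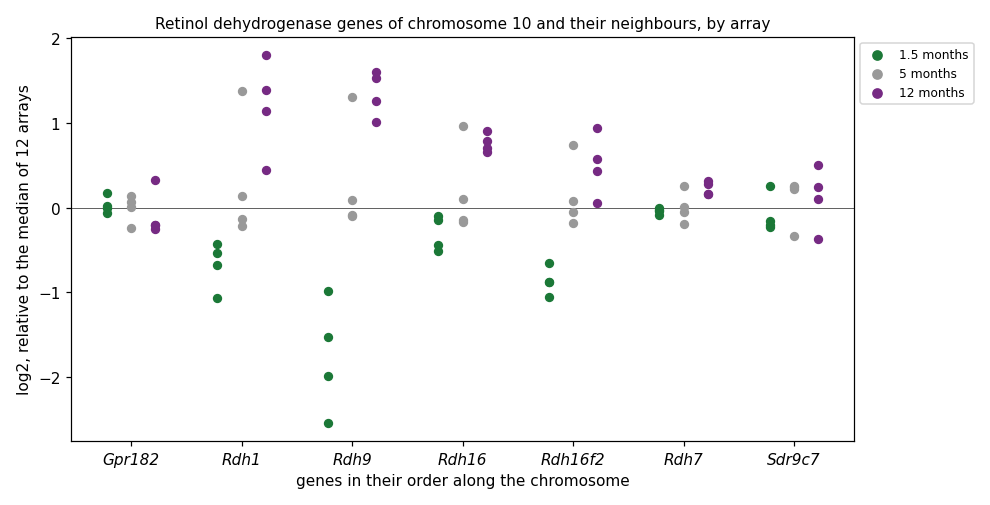
Gene means of 12 arrays (y axis, log2 relative to the median of the 12 arrays) for 7 neighbouring genes of chromosome 10 in their order (x axis), with arrays of 1.5, 5 and 12 months as green, grey and purple points. Rdh1, Rdh9, Rdh16 and Rdh16f2 lie higher on every 12-month array than on every 1.5-month array, and the single high 5-month point in these genes is C29.

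Fatty acid genes moved in both directions. Of 37 measured genes, 4 rose and 3 fell, with a median of 0.00. Scd1, which introduces the double bond of oleic acid, was at -0.37, -0.79, -0.61 and -0.03 in young and at 0.66, 0.98, 0.96 and 0.72 in old rods, and rose by 1.28 (SE 0.19, adjusted p = 0.0050). The gene of the oxysterol-binding protein Osbpl1a was at -0.51, -0.83, -0.69 and -0.62 against 0.71, 0.64, 0.03 and 0.29, a rise of 1.08 (SE 0.14, adjusted p = 0.0018). Both genes separated the ages without overlap. Both probe sets of Osbpl1a were called, at 1.05 and 1.11, whereas those of Scd1 differed by 2.49 (adjusted p = 0.0048) and 0.06 (adjusted p = 0.79). Acyl-CoA dehydrogenases carry out the first step of beta-oxidation, and the 2 members for medium and long chains went opposite ways. Acadm, for medium chains, rose by 0.64 (SE 0.10, adjusted p = 0.0056), from values of -0.66, -0.42, -0.61 and -0.31 to 0.02, 0.31, 0.09 and 0.15. Acadl, for long chains, fell by 0.95 (SE 0.17, adjusted p = 0.012), from 0.54, 0.17, 0.49 and 0.76 to -0.03, -0.97, -0.46 and -0.38, with 1 of 2 probe sets called (-1.604, and -0.30 for the other). The further members were Cpt1c, which rose by 0.77, and Hadhb and Ppara, which fell by 0.33 and 0.57, and these 3 did not keep their calls when single arrays were left out, with adjusted p values of up to 0.114, 0.080 and 0.109. For Ppara, the nuclear receptor that switches on beta-oxidation genes, A30 was at 0.46, above the 4 young arrays, while A29, B29 and C29 lay from -0.04 to 0.18.

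In glycolysis, 2 of 19 genes rose and none fell. Ldhb, the lactate dehydrogenase subunit of oxidative tissues, rose by 0.68 and Pfkfb3, which makes the activator of phosphofructokinase, by 0.89, with adjusted p values of 0.025 and 0.039. With single arrays left out these reached 0.070 and 0.108. In the citric acid cycle, Ogdh fell by 0.35 (adjusted p = 0.031, up to 0.083 with an array left out), and 15 of 20 genes had a negative difference, with a median of -0.13. Cyp51, of cholesterol synthesis, rose by 0.52 (adjusted p = 0.021, up to 0.056), and it was the only one of 19 genes in its list that passed. The glutathione transferase Gsta3, which conjugates products of lipid peroxidation, was at -0.48, -0.47, -0.41 and -0.32 against 0.43, 0.16, 0.50 and 0.32 and rose by 0.77 (SE 0.11, adjusted p = 0.0030). It was likewise the only one of 30 antioxidant genes that passed the test.

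Genes of the phototransduction cascade were level between the ages with 1 exception. Of 19 measured genes, 18 did not pass, and the list had a median of 0.01, with the alpha subunit of rod transducin, Gnat1, at 0.01 (SE 0.07, adjusted p = 0.97). Guca1b, the calcium sensor GCAP2 that controls the guanylate cyclase of the outer segment, fell by 0.45 (SE 0.08, adjusted p = 0.012). It was at 0.04, -0.02, 0.12 and 0.01 in young and at -0.40, -0.46, -0.49 and -0.29 in old rods, and all 4 arrays of 5 months lay between -0.08 and 0.15, with the young ones. The difference came from 1 of its 2 probe sets, at -0.91 (adjusted p = 0.0026), and the other was at 0.01. Of 40 genes of the outer segment and cilium, 2 fell and none rose. Myo7a, the myosin of Usher syndrome that carries opsin through the connecting cilium, was at 0.58, 0.83, 0.48 and 0.78 against -0.46, -0.44, -0.32 and -0.20 and fell by 1.02 (SE 0.14, adjusted p = 0.0028). Ttc8, a subunit of the BBSome that sorts proteins into cilia and is mutated in Bardet-Biedl syndrome, fell by 0.55 (SE 0.11, adjusted p = 0.019), from 0.57, 0.24, 0.09 and 0.19 to -0.32, -0.17, -0.21 and -0.41.

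At the synapse, 1 of 33 genes rose and 2 fell. Rims2, a scaffold of the active zone, rose by 0.57 (SE 0.13, adjusted p = 0.034). The priming factors Unc13a and Unc13b fell by 0.78 (SE 0.19, adjusted p = 0.044) and 0.38 (SE 0.08, adjusted p = 0.019). The 3 calls were lost when any of several arrays was left out, with adjusted p values of up to 0.094, 0.108 and 0.063. On A30, Rims2 was at -0.39 and Unc13a at 0.57, the level of the young arrays (-0.46 to -0.29 and 0.41 to 0.65), whereas A29, B29 and C29 lay at 0.10 to 0.29 and -0.19 to -0.03. Of 21 photoreceptor transcription factors, Rax fell by 0.46 (adjusted p = 0.047, up to 0.125), and the rod factors Nrl and Crx were at -0.08 and -0.06 (adjusted p = 0.56 and 0.77).

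Among 45 enzymes of chromatin and DNA methylation, 2 rose and 4 fell, the median was -0.13 and 30 genes had a negative difference. Hdac4, a class IIa histone deacetylase that shuttles between nucleus and cytoplasm, was at 0.66, 0.61, 0.44 and 0.57 in young and at -0.32, -0.35, -0.21 and -0.39 in old rods, a fall of 0.89 (SE 0.15, adjusted p = 0.0086). All 3 of its probe sets were called. A30 was at 0.61, with the young arrays, and A29, B29 and C29 lay between -0.21 and -0.07. Hr, the corepressor hairless, fell by 0.78 (SE 0.13, adjusted p = 0.0097), from 0.82, 0.71, 0.45 and 0.79 to -0.17, -0.04, -0.10 and -0.02, with A30 at 0.32. Its 2 probe sets differed by -1.70 and 0.14, and the first was called. Dnmt3a, a de novo DNA methyltransferase, was at 0.35, 0.18, 0.23 and 0.28 against -0.10, -0.35, -0.15 and -0.21 and fell by 0.46 (SE 0.08, adjusted p = 0.012). Of its 5 probe sets, 1 was called, at -0.83, and the other 4 differed by -0.60 to -0.15. Smarca4, the ATPase of the BAF remodelling complex, fell by 0.37, and the Polycomb subunit Suz12 and the trithorax methyltransferase Kmt2a each rose by 0.45. These 3 reached adjusted p values of 0.074, 0.070 and 0.062 with an array left out.

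Of 13 histone genes in the list, 1 rose and 1 fell. H2aw, an H2A gene of chromosome 11, was at -1.11, -1.12, -0.58 and -1.45 in young and at 0.24, 0.21, 0.05 and 0.20 in old rods and rose by 1.24 (SE 0.15, adjusted p = 0.0011). Trim17, which overlaps it in the RefSeq annotation, rose by 1.29 (adjusted p = 0.022), with D21 at -0.22 and the other young arrays at -1.53 to -1.08, and probe sets of overlapping genes may read both. H3f3a, which encodes the replacement histone H3.3, fell by 0.60 (adjusted p = 0.032, up to 0.095 with an array left out). For the 21 genes of the circadian clock, 16 differences were negative and the median was -0.18, with 1 gene called. Tef, a PAR bZIP output factor of the clock, fell by 0.45 (SE 0.08, adjusted p = 0.012), from 0.18, 0.28, 0.15 and 0.15 to -0.27, -0.21, -0.14 and -0.40. Of its 3 probe sets, 1 was called, at -0.86, and the others were at -0.42 and -0.06. Per2, Dbp and Cry2 did not pass, with differences of -0.64 (adjusted p = 0.085), -0.52 (adjusted p = 0.13) and -0.41 (adjusted p = 0.076). The hour at which the retinas were taken is not given in the labels. Of 35 genes of DNA repair, Xrcc6, the Ku70 subunit of double-strand break repair, fell by 0.44 (SE 0.08, adjusted p = 0.012), from 0.22, 0.17, 0.25 and 0.00 to -0.25, -0.32, -0.19 and -0.36. Tef and Xrcc6 lie close together on chromosome 15, in a stretch of 12 measured genes from L3mbtl2 to Xrcc6. Of these 3 fell and none rose, and the stretch was bounded by called genes after the values were seen. Ercc3 fell by 0.65 (adjusted p = 0.043, up to 0.110). Of 35 genes of the cell cycle, the inhibitor Cdkn1b fell by 0.44 (SE 0.08, adjusted p = 0.016) and Plk1 fell by 0.55 (adjusted p = 0.049, up to 0.106), while Ccnd1 rose by 0.78 (adjusted p = 0.019, up to 0.062).

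**Figure D3:**
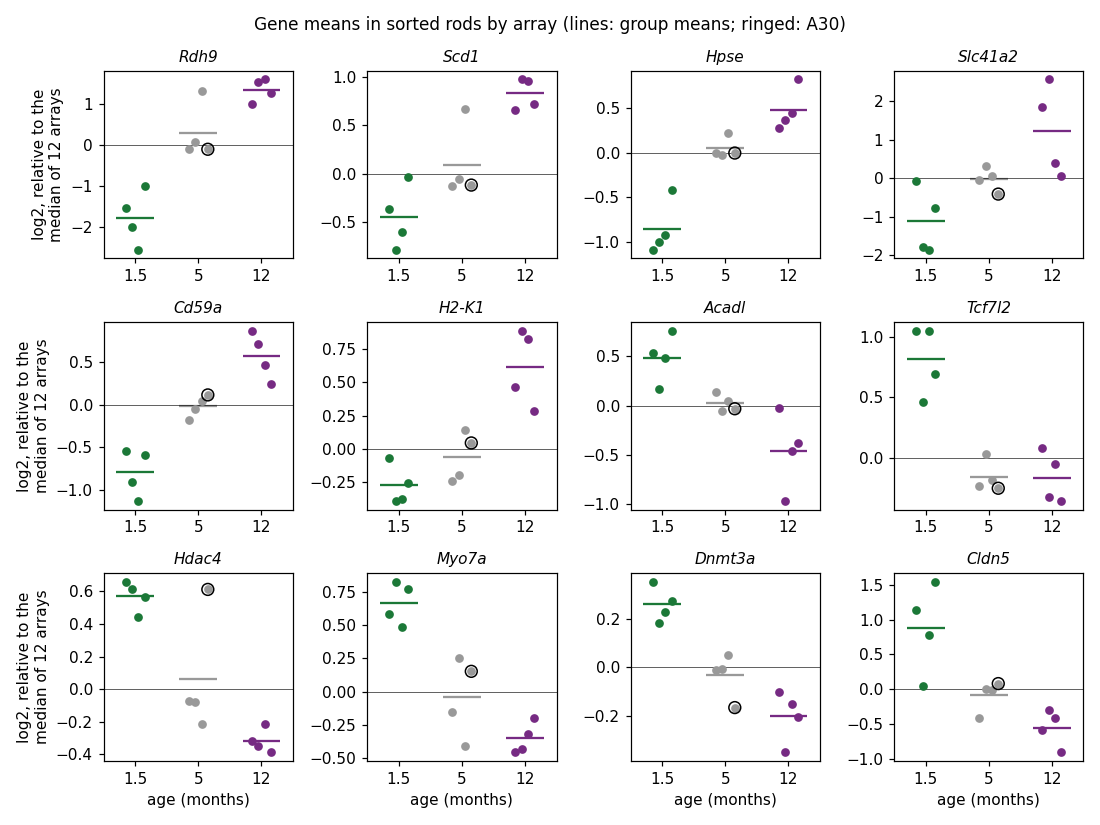
Gene means of 12 genes (panels) on each array (points) by age in months (x axis), as log2 relative to the median of the 12 arrays (y axis), with group means as lines and the 5-month array A30 ringed. In each panel the arrays of 12 months do not overlap those of 1.5 months; A30 sits with the young arrays for Hdac4, at 0.61, and with the other 5-month arrays for Rdh9, at -0.10.

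Single genes of complement, antigen presentation and the lysosome rose. Cd59a, the membrane inhibitor of the complement attack complex, was at -0.54, -0.91, -1.13 and -0.59 in young and at 0.87, 0.72, 0.46 and 0.24 in old rods, a rise of 1.36 (SE 0.16, adjusted p = 0.00086). It was the only one of 16 complement genes that passed the test. Of 20 genes for presenting antigen on MHC class I, 3 rose (H2-K1, Hfe and Erap1) and none fell. H2-K1, a class I heavy chain, was at -0.07, -0.39, -0.38 and -0.26 against 0.47, 0.89, 0.83 and 0.29 and rose by 0.89 (SE 0.14, adjusted p = 0.0069). Of its 4 probe sets, which may read other class I genes, the differences were 1.61, 1.11, 0.57 and 0.28, and 2 were called. Of 27 interferon-response genes, 1 fell, Ifitm3, by 1.03 (adjusted p = 0.042, up to 0.106 with an array left out), and A30 was at -1.06, below every old array. Hpse, the heparanase that trims heparan sulphate, was at -1.09, -1.004, -0.92 and -0.42 against 0.28, 0.36, 0.44 and 0.82 and rose by 1.33 (SE 0.15, adjusted p = 0.00086). Lamp1, a major protein of the lysosome membrane, rose by 0.41 (adjusted p = 0.038, up to 0.107). Of 32 genes of autophagy and the lysosome 3 rose (Hpse, Lamp1 and the cathepsin Ctso) and none fell, and the median was -0.06. The 18 markers of microglia and macrophages had a median of -0.17, with 13 negative differences, and ranged by array from -0.15 to 0.06 in old and from -0.01 to 0.25 in young samples. Of these, Cd14 rose by 1.52 (adjusted p = 0.048, up to 0.118), with overlapping ages. Bst1, a cell-surface enzyme of NAD metabolism, rose by 1.57 (SE 0.16, adjusted p = 0.00050), from -0.86, -0.97, -1.01 and -1.16 to 0.40, 0.31, 0.85 and 0.73.

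Signalling genes of the Wnt and TGF-beta families moved as single members. Of 51 genes, 2 rose and 1 fell. Tcf7l2, a transcription factor at the end of the Wnt pathway, was at 1.05, 0.46, 1.05 and 0.69 in young and at 0.08, -0.32, -0.05 and -0.35 in old rods and fell by 0.97 (SE 0.15, adjusted p = 0.0048). All 4 of its probe sets were called, at -0.87, -0.90, -0.99 and -1.14, and the arrays of 5 months lay at -0.25 to 0.03. Fzd5, a Wnt receptor of the developing eye, rose by 0.66 (SE 0.09, adjusted p = 0.0040), from -0.47, -0.43, -0.43 and -0.63 to 0.30, 0.24, 0.09 and 0.03. Its probe sets differed by 0.90, which was called, and 0.41 (adjusted p = 0.15). Smad5 rose by 0.35 (adjusted p = 0.033, up to 0.092). In axon guidance, with 49 genes, the ephrin ligand Efnb1 rose by 0.76 (SE 0.09, adjusted p = 0.0011), with old arrays at 0.61, 0.44, 0.29 and 0.37 and young ones at -0.20, -0.44, -0.32 and -0.39. The netrin receptor Unc5c fell by 0.81 (adjusted p = 0.039, up to 0.102). The metalloproteinase inhibitor Timp1 fell by 0.59 (SE 0.08, adjusted p = 0.0034), from 0.46, 0.47, 0.40 and 0.63 to -0.04, -0.08, -0.20 and -0.10.

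Genes known from blood vessels fell or rose one by one. Acvrl1, the endothelial receptor ALK1 for BMP ligands, fell by 0.77 (SE 0.14, adjusted p = 0.012), from 0.01, 0.32, 0.38 and 0.42 to -0.29, -0.49, -0.64 and -0.53. Cldn5, the claudin of endothelial tight junctions, was at 1.14, 0.05, 0.78 and 1.54 against -0.58, -0.30, -0.41 and -0.91 and fell by 1.42 (SE 0.25, adjusted p = 0.011). Slco1a4 and Pecam1, also endothelial, fell by 1.39 and 0.67 (adjusted p = 0.027 and 0.047), the former with overlapping ages, and with an array left out these reached 0.083 and 0.1225. The haemoglobin gene Hbb-b2, of red blood cells, fell by 1.07 (SE 0.19, adjusted p = 0.011), from 0.51, 0.45, 0.89 and 0.11 to -0.65, -0.74, -0.04 and -0.90. Its probe sets differed by -2.10 and -0.05. Of the 6 measured genes of red blood cells the other 5 did not pass. The differences were positive for 4 of the 6, with a median of 0.01. Plvap, the protein of endothelial fenestrae, went the other way from Cldn5, with a rise of 1.83 (SE 0.31, adjusted p = 0.0088) from -0.63, -1.49, -0.14 and -0.75 to 0.90, 1.87, 0.34 and 1.20. The mural cell genes Cspg4 and Myh11 rose by 0.37 and 0.56 (adjusted p = 0.042 and 0.022, up to 0.108 and 0.063). Over the 18 vascular markers, 2 rose and 3 fell, the median was -0.16, and the median by array ran from -0.01 to 0.20 in young and from -0.18 to -0.00 in old samples. The part of vascular cells in these values was not tested. Of the other cell types, no marker of horizontal cells (11 measured), ganglion cells (16), pigment epithelium (19), astrocytes (7) or lens (15) passed, and 1 of 19 Müller glia markers (Car2, a rise of 0.46), 1 of 17 bipolar markers (Nyx, a fall of 0.71) and 1 of 16 amacrine markers (Gad1, a fall of 0.70) did. Their adjusted p values reached 0.114, 0.113 and 0.079 with an array left out.

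Insulin and growth factor signalling held 1 of the rises with the smallest adjusted p. Irs1, the adaptor that carries the signal of the insulin and IGF receptors, was at -0.95, -1.79, -1.51 and -1.14 in young and at 1.20, 1.39, 1.02 and 0.83 in old rods, and rose by 2.46 (SE 0.17, adjusted p = 1.87e-05). Igfbp2 rose by 0.69 (adjusted p = 0.041, up to 0.109 with an array left out), and the other 32 of 34 genes did not pass. Of 39 genes of collagens and matrix 4 rose and 1 fell, with 26 positive differences and a median of 0.08. Col4a3, a chain of basement membrane collagen, was at -2.44, -2.38, -1.93 and -2.58 against 0.09, 0.50, 0.04 and 0.12 and rose by 2.52 (SE 0.17, adjusted p = 1.87e-05). Irs1 and Col4a3 kept their calls under every alternative run, and the ages did not overlap in either. They are near neighbours, in a stretch of 5 measured genes on chromosome 1 from Irs1 to Mff, of which 3 rose. Col4a4, which lies between them, rose by 0.54 (adjusted p = 0.041, up to 0.105 with an array left out). The stretch was bounded after its values were seen, and over all genes 1.84% rose.

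In respiratory complexes II and III, 1 of 14 genes fell. Uqcr10, a small subunit of complex III, was at 1.58, 1.15, 1.30 and 1.45 against -0.12, 0.01, 0.34 and -0.19, and fell by 1.35 (SE 0.13, adjusted p = 0.00021). Of its 3 probe sets, the one most lowered differed by -2.42 (adjusted p = 0.0013). Among 23 heat shock proteins and chaperones Hspa2 rose by 1.68 (adjusted p = 0.00074), and among 32 immediate early genes Atf3 rose by 0.75 (adjusted p = 0.030, up to 0.073). None of 20 genes of endoplasmic reticulum stress passed. Of 37 angiogenesis factors 4 rose and 1 fell, among them the chemokine receptor Cxcr4 (0.93, adjusted p = 0.039, up to 0.098). Of 43 genes of ion channels, Itpr2 and Clic6 rose, by 0.63 and 2.42, and none fell.

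Among called probe sets with 1 annotated gene and ages that do not overlap, the most raised apart from Y-linked ones belonged to Btnl9 and Ly75. Btnl9, a butyrophilin-like gene, was at -3.39, -3.92, -1.56 and -3.83 in young and at 1.30, 1.39, 0.10 and -0.37 in old rods, a rise of 3.78 (SE 0.56, adjusted p = 0.0063). Ly75, the endocytic receptor DEC-205, was at -2.98, -2.50, -1.93 and -1.92 against 1.45, 1.55, 0.47 and 0.58, a rise of 3.34 (SE 0.33, adjusted p = 0.00063). The call of Ly75 was kept under every alternative run. Col25a1, a membrane collagen, and Glb1l3, a galactosidase-like gene, rose by 3.19 (adjusted p = 0.0064) and 2.69 (adjusted p = 0.00041). The magnesium transporter Slc41a2, also among the 20 most raised, spread more widely, at -0.07, -1.79, -1.86 and -0.78 in young and at 1.84, 2.56, 0.39 and 0.05 in old rods, a difference of 2.33 whose adjusted p was 0.036 and reached 0.094 with an array left out.

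Among called probe sets with 1 annotated gene and ages that do not overlap, the most lowered after Xist and Uqcr10 was one of Neurl1a, an E3 ubiquitin ligase. It fell by 2.10 (SE 0.32, adjusted p = 0.0073), from 1.20, 0.92, 0.96 and 0.58 to -1.91, -1.36, -0.37 and -1.12. A called probe set without a single gene differed by more, at -3.17 (adjusted p = 0.0026). A second probe set of Neurl1a was called at -1.47 (adjusted p = 0.024), and the mean over its 6 probe sets differed by -0.59 (adjusted p = 0.077). Ccdc141 was at 1.21, 1.06, 0.93 and 1.50 against -1.27, -0.47, -0.48 and -0.53, a fall of 1.86 (SE 0.20, adjusted p = 0.0011), and kept its call under every alternative run. Kazn and Serinc5 fell, with differences of -1.78 and -1.725 (adjusted p = 0.017 and 0.024), and with an array left out these reached 0.054 and 0.069. The kinase Hunk fell by 1.52 (SE 0.22, adjusted p = 0.0063), from 0.90, 0.52, 1.30 and 1.45 to -0.14, -0.58, -0.36 and -0.82.

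Called genes were gathered in some stretches of chromosomes. When 18031 measured genes were set in the order of RefSeq for GRCm38.p6 and read in runs of 40 neighbours, the median run held 1 called gene and the highest number was 8. The 2 runs with the most calls lay on chromosome 2, from Emc7 to Ivd with 8 and from Oip5os1 to Ppip5k1 with 7. From Bmf to Sqor on the same chromosome, 96 genes were measured, of which 7 were higher and 5 lower at 12 months. For 8 of these 12 called genes the 1.5-month arrays did not form 1 group. Tmem87a was at -5.01, -4.05 and -4.28 on C21, B21 and E21 and at -0.12 on D21, within the range of the 8 later arrays (-0.19 to 0.45). The difference between the ages was 3.35 (SE 0.76, adjusted p = 0.034). Without D21 the means differed by 4.43 with an adjusted p of 4.49e-07, and without any other single array of the 2 ages the adjusted p lay above 0.05, with 0.093 as the highest. Ivd, an enzyme of leucine breakdown, was at 1.11, 1.16 and 0.90 on C21, B21 and E21 and at -0.05 on D21, and fell by 0.996. Bloc1s6, a subunit of the BLOC-1 complex, was at -1.40, -1.37 and -1.15 and at -0.01 on D21, and rose by 1.04. Its 3 probe sets differed by 0.05, 0.53 and 2.53. Ivd and Bloc1s6 lost their calls without any single array other than D21, with adjusted p values of up to 0.096 and 0.1003, and Insm1, below, without C21, B21, E21 or AR16, with up to 0.057. The same layout, with D21 within the later range and the other 3 young arrays beyond it, was seen in 17 of the 96 genes, of which 8 were called, against 415 of all 18031 genes (2.3%). For C21, B21 and E21 in the place of D21 the corresponding counts over all genes were 199, 354 and 252. Further along chromosome 2, the transcription factor Insm1 had the layout as well, at -0.98, -0.98 and -1.06 with D21 at -0.11 (difference 0.94, adjusted p = 0.017). The cause of this layout was not tested, and these genes were chosen after their values were seen.

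**Figure D4:**
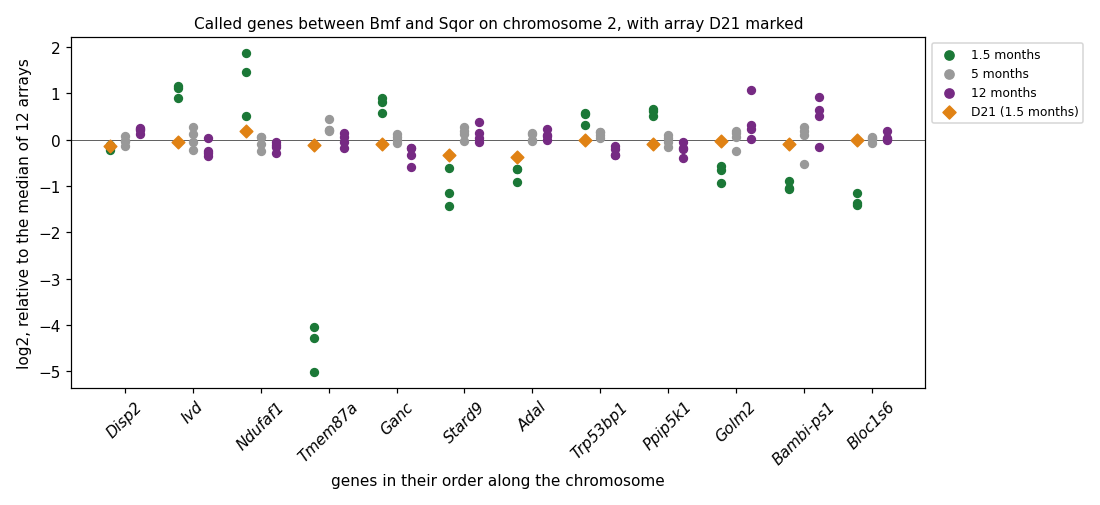
Gene means by array (y axis, log2 relative to the median of the 12 arrays) for the 12 called genes from Bmf to Sqor on chromosome 2, in their order (x axis), with D21 as orange diamonds, the other arrays of 1.5 months in green, 5 months in grey and 12 months in purple. For Tmem87a, Ivd and Bloc1s6, D21 lies with the later arrays and apart from C21, B21 and E21.

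On chromosome 13, 3 further stretches held genes that rose, here with all 4 young arrays below all 8 later ones. Each was bounded by called genes after the values were seen, so the shares of called genes in them are high by construction. Over all 18193 genes 1.84% were higher. Of 17240 runs of 40 neighbours over the genome, 176 held 5 or more called genes. In a stretch of 8 measured genes from Ahrr to Cast, 5 rose and none fell. Ahrr, the repressor of the aryl hydrocarbon receptor, rose by 0.87 (SE 0.12, adjusted p = 0.0026), and the RNA E430024I08Rik by 1.42 (adjusted p = 0.0018). The zinc finger gene Zfp825 rose by 0.68 (adjusted p = 0.019, up to 0.056 with an array left out), the aminopeptidase gene Erap1 by 1.03 (adjusted p = 0.00074, with probe sets at 1.66 and 0.40) and the calpain inhibitor gene Cast by 0.53 (adjusted p = 0.016). Pdcd6, Sdha and Ccdc127, which lie among them, were at -0.04, -0.01 and -0.03. From 2810408B13Rik to Zfp934, 3 of 4 genes rose, with the zinc finger genes Zfp935 at 1.20 (adjusted p = 0.0012) and Zfp934 at 1.22 (SE 0.10, adjusted p = 6.09e-05). Zfp934 was at -0.90, -1.12, -0.93 and -1.17 in young and at 0.04, 0.30, 0.08 and 0.34 in old rods. Zinc finger genes of such arrays are close in sequence, and the probe sets may read several of them. From H3c4 to Carmil1, 3 of 10 genes rose, with the histone gene H3c4 at 1.43 (adjusted p = 0.0012) and the capping protein regulator Carmil1 at 0.65 (adjusted p = 0.0035). Hfe was the third, and of the genes between them that did not pass, H1f6 had the largest difference, at 0.30 (adjusted p = 0.32).

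The 5-month array A30 was the one array in which male and cone signal could be set apart from 12 months of age. Its Xist value was -7.81 and its median cone gene 1.89, against -0.59 to -0.17 on A29, B29 and C29. In a fit of the 8 arrays alone, 259 probe sets were higher and 188 lower at 12 months. A30 lay beyond A29, B29 and C29 in the direction of the 12-month difference for 30.5% of the higher and 26.1% of the lower ones, and this share was 27.1% over all probe sets. It lay beyond them in the opposite direction for 32.4% and 39.4%, against 31.7% over all. The median distance of A30 from the mean of the other 5-month arrays was -0.03 for the higher and 0.07 for the lower probe sets, beside median age differences of 1.11 and -0.88. Some probe sets lay far out on A30. Leaving out the 11 called probe sets annotated to Xist, Uty, Kdm5d or Eif2s3y, A30 was more than 1.5 above the other 5-month arrays for 18 probe sets, all higher at 12 months, and more than 1.5 below them for 0. Of the 18, 9 have no single gene in the annotation, so that further sex-linked genes may be among them. Genes of the cone list were among the others: Arr3 (3 probe sets, 2.22 to 2.76), Opn1sw (3.14), Pde6c (3.23), Cngb3 (2.07) and Ccdc136 (2.44). The rest were Gpat3 (2.54) and Qsox1 (1.57), named here after their values were seen. Their rises at 12 months of 2.01 and 0.79 in the fit of 8 arrays went with the male and cone signal of A30. The cut of 1.5 did not fall in a gap, as raised probe sets of Igsf3 (1.48) and Sphkap (1.47) lay just under it. Some lowered probe sets were below on A30 by less than the cut: Kif5c (-1.41), Nrsn1 (-1.32), Cnksr2 (-1.29), Nefl (-1.24) and Galm (-1.22). Other lowered ones were above, such as Rnf183 (1.09) and Trim3 (1.04), and the shares of both kinds are given above. These examples, too, were named after their values were seen. These values come from 1 array and allow no test. When the Y-linked signal was added as a covariate, with which age then shares most of its variance, 13 probe sets were higher and 11 lower. That signal varied little within 1.5 months (-0.16 to -0.06) and within 12 months (1.74 to 1.92). Its slope therefore rests largely on A30 (1.87) against A29, B29 and C29 (-0.28 to -0.11), and the fit cannot separate sex from age. Hdac4, Hr, Rims2 and Zfp934 were among the genes that kept their calls in that fit, and Rdh9, Scd1, Cd59a, Tcf7l2 and Myo7a were not. In probe sets of Hdac4 (0.78 and 0.86), Hr (0.96) and Rims2 (-0.72), A30 lay off the other 5-month arrays against the direction of the 12-month difference.

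**Figure D5:**
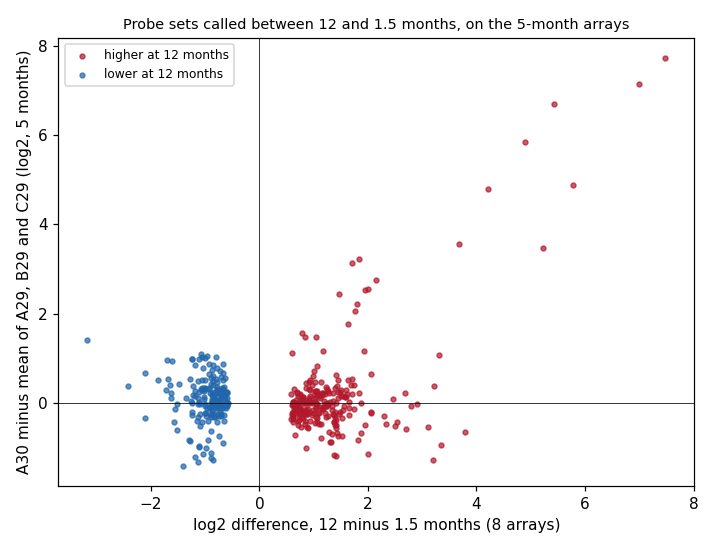
Distance of A30 from the mean of A29, B29 and C29 (y axis, log2) against the difference between 12 and 1.5 months in the fit of 8 arrays (x axis, log2) for 436 called probe sets, the 11 annotated to Xist, Uty, Kdm5d or Eif2s3y left out, with higher ones in red and lower ones in blue. Most points lie around 0 on the y axis, 18 red points lie above 1.5, and medians on the y axis, with the sex-linked genes included, are -0.03 for higher and 0.07 for lower ones.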

How the data were processed

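RNA of flow-sorted rods was measured on Affymetrix Mouse Genome arrays. The authors made the deposited log2 values with Robust Multichip Average, a method that corrects background, normalizes by quantiles and sums probes. Each deposited probe set row is centred on its median over the 12 arrays, to within 5e-07 as checked here. Array medians lay between -0.011 and 0.0091, and 4 arrays per age limit the precision. The number in the sample code is the same on all young arrays (C21, B21, D21 and E21), on A29, B29 and C29, and on AR16 and B16. Its meaning is not given, and no number is shared between ages. Nothing in the labels says whether arrays of an age share animals, though the methods name biological replicates. Whether arrays with the same number are independent could not be checked.

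The 64 control probe sets were left out. The other 45037 were fitted with limma 3.58.1 (R 4.3.3) in a single model with the 3 ages as groups, using the contrast of 12 against 1.5 months and Benjamini-Hochberg adjustment over all of them. Of these, 34945 have 1 gene in the platform annotation, 932 several and 9160 none. The 18193 genes were fitted likewise on the mean of their own probe sets. A probe set was called at an adjusted p under 0.05 and at least 1.5-fold, a gene at an adjusted p under 0.05. In the text a single gene is the mean of its probe sets unless a probe set is named. The 51 gene lists and the members were chosen with earlier results of these data known, and several lists hold genes that the study drew from these arrays, such as Scd1, Osbpl1a, H2-K1 and Cd59a, whose counts are not independent of that choice. Genes could be named if they passed as members of a list, or if their probe sets were among the 20 most raised or 20 most lowered with ages that do not overlap; not all of these are described. Genes named for their position on a chromosome, and Bst1, Plvap, Trim17, Per2, Dbp, Cry2, Nrl, Crx and Gnat1 as examples, were picked after their values were seen.

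Gene order and promoters come from RefSeq GRCm38.p6, with 34741 of the probe sets with 1 gene found there. Promoters were aligned with Biopython 1.88 and counted with pandas 2.3.3. The scripts were tested on simulated data. Alternatives were the 8 arrays alone, leaving out each array or A30, a plain test, other normalizations, array weights, a robust model, a random block for the code number, Y-linked or cone signal as a covariate, the most variable probe set of a gene, and other fold thresholds.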

Additional observations from a re-analysis of the deposited data

Results flagged for a closer look

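In 20 of 296 groups of 4 arrays examined, 1 array lay far from the other 3 of its age, where chance alone gives about 1 group in 20. D21 was the array for Atf3 at -0.78, Insm1 at -0.11 and Itpr2 at -0.29 (the other 3 young arrays lay at -0.28 to -0.18, -1.06 to -0.98 and -0.50 to -0.46). B21 was the array for Car2 at -0.33, Ldhb at -0.54 and Unc5c at -0.0018. C21 was the array for Carmil1 at -0.53 and the glutamate receptor gene Gria2 at -0.45. E21 was the array for Rarb at -1.14, Zfp935 at -1.52 and 1 probe set of Uty at 0.26. Of the 12-month arrays, D18 stood apart for the kinase gene Camk2b at 1.39, Rims2 at 0.042, another probe set of Uty at 2.12 and 1 probe set of Xist at -5.09. B16 stood apart for Col4a3 at 0.50 and Lamp1 at 0.04, A19 for Pecam1 at -0.72, and AR16 for probe sets of Ccdc25 at 0.17 and Ccdc141 at -1.27.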

How the results depend on the processing

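With only the 8 arrays, 259 probe sets were higher and 188 lower, and 201 and 113 genes. A test without moderation gave 246 and 195 probe sets and 136 lower genes. With the code number as a random block these were 84 and 30 probe sets and 46 and 10 genes, with a Y-linked covariate 13 and 11 probe sets and 13 and 9 genes, and with cone signal as a covariate 107 and 102 probe sets and 102 and 112 genes. Quantile normalization left 291 lower probe sets and 138 lower genes, and a 2-fold threshold 188 and 136 probe sets. Leaving out each array in turn gave 275 to 498 higher and 191 to 539 lower probe sets, and 186 to 333 higher and 85 to 247 lower genes. The fewest genes came without C21. Without A30, with equal array medians or with a robust model, each count stayed within 1.5 times its main value.

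Of 107 named genes, between 57 (without C21) and 88 (without D18) kept an adjusted p under 0.05 when 1 array was left out. Of these 107, 68 kept it with the 8 arrays, 27 with the block, 10 with the Y-linked covariate and 47 with the cone covariate. Signs turned only with the Y-linked covariate, for the gene means of Uty (-0.38), Kdm5d (-0.29), Cngb3 (-0.11), Xist (0.14), Ifitm3 (0.070) and Kdm5c (0.027), and for probe sets of Uty (-0.37, -0.11, -0.76 and -0.27), Kdm5d (-0.18) and Xist (0.79). The covariate is the mean of the Y-linked genes, so Uty and Kdm5d were fitted on a signal built in part from themselves. Xist was low on the arrays where that signal was high. Their turns of sign are therefore no test, and for the other genes the cause was not tested. No paired analysis was possible because no sample code is shared between the ages. Filters on dim probe sets, the brightest probe set of a gene and a trend with intensity were not run, since the centred values hold no level.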
